A study of Mus musculus with 12 samples.

Results

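The expression of 10 acute phase protein genes, chosen by name, was followed in the livers of mice that differed in genotype and diet. The genes were the serum amyloid A genes *Saa1*, *Saa2* and *Saa3*, the orosomucoid genes *Orm1* and *Orm2*, the lipocalin gene *Lcn2*, haptoglobin (*Hp*), hemopexin (*Hpx*), alpha-2-macroglobulin (*A2m*) and the inter-alpha-trypsin inhibitor heavy chain gene *Itih4*. All 10 were found by symbol among the 24532 genes listed, and all 10 were among the 14038 genes with enough counts to be tested. The livers came from 12 male C57BL/6 mice in 4 groups of 3. *Ahr* HKO mice carried *Ahr* fl/fl with *Alb-Cre*, which is driven by the albumin promoter and removes the floxed exon of the aryl hydrocarbon receptor gene in hepatocytes. The paper describes the deletion as specific to hepatocytes. The mice called WT were *Ahr* fl/fl littermates without Cre, so every mouse of the study carried the floxed allele. Each genotype was fed either an isocaloric control liquid diet (con) or the Lieber-DeCarli liquid diet (EtOH), in which ethanol was 5% of the volume and 36% of the calories, for 5 weeks from the age of 10 to 12 weeks. The 3 livers of a group were a random draw from a larger group of mice, and polyadenylated RNA of the whole tissue was sequenced.

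Acute phase proteins are plasma proteins whose synthesis in the liver rises when an injury or infection is sensed. Macrophages and other cells release interleukin 1, interleukin 6 and tumor necrosis factor, and hepatocytes respond through STAT3, NF-kB and C/EBP factors that act on the genes of the secreted proteins. Serum amyloid A travels on high density lipoprotein, orosomucoid binds drugs and lipids, haptoglobin and hemopexin capture free hemoglobin and heme, lipocalin 2 binds the siderophores with which bacteria take up iron, and alpha-2-macroglobulin traps proteases.

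Each library held between 46306518 and 74336255 reads on genes. A floor of 3 counts, which covers counting error only, equals 0.0425 to 0.0676 CPM, where CPM is the count of a gene relative to its library total after TMM scaling. A gene was called, or counted as a DEG, where edgeR's quasi-likelihood test gave an adjusted *P* below 0.05 and the FC exceeded 1.5. *Ahr* itself was at 16.6 to 20.1 CPM in WT and 41.3 to 65.5 CPM in *Ahr* HKO on the control diet. A count over the whole gene does not resolve the excised exon, so this level does not check the deletion. Hepatocyte markers summed to 13144 to 24614 CPM over the 12 livers, and the adipocyte markers *Plin1*, *Lep* and *Retn* had no count in any of them. A further adipocyte marker, *Cfd*, was at 0.512 to 34.7 CPM in *Ahr* HKO control livers and at most 1.84 CPM in the other groups. Fewer cells of a type and less RNA per cell cannot be told apart in whole liver.

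One library stood apart for these genes. Liver 1 of the WT control group had the lowest CPM of its 3 livers for 9 of the 10 acute phase protein genes, all but *A2m*, and for 16 of 19 other positive acute phase genes. Across all tested genes, it was the lowest of the 3 for 35.3%. For 8 of the 10, all but *Hpx* and *A2m*, it lay below every liver of WT mice on ethanol. Values without it are therefore given beside those of the 10 genes. Calls of other named genes that were lost or gained without it are marked. Liver 1 was singled out by the values of these same genes. Adjusted *P* values and calls without it are conditional on that choice and are not independent tests.

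Ranked by FPKM, which corrects for gene length, *Hp* was the highest of the 10 in *Ahr* HKO livers on the control diet, at 8157 ± 868 FPKM (mean ± SD, n = 3). It was followed there by *Hpx* at 5676 ± 733, *Saa1* at 4222 ± 1094 and *Saa2* at 3745 ± 1387. *Orm1* stood at 2042 ± 161 FPKM, *Itih4* at 1959 ± 326 and *Lcn2* at 1334 ± 554. *Hp* and *Hpx* did not overlap with each other or with the genes below them, whereas *Saa1* and *Saa2*, *Saa2* and *Orm1*, *Orm1* and *Itih4*, and *Itih4* and *Lcn2* overlapped between livers. *Orm2* followed at 255 ± 133 FPKM, *Saa3* at 21.5 ± 10.03 and *A2m* at 3.06 ± 2.83, and their ranges did not overlap.

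On ethanol the order in *Ahr* HKO livers was different. *Hp* was still first at 2308 ± 261 FPKM and *Hpx* next at 1656 ± 199, with *Orm1* at 927 ± 189 and *Itih4* at 617 ± 169. *Saa1* was now below *Itih4* at 96.9 ± 15.8 FPKM, followed by *Orm2* at 39.2 ± 10.6 and *Saa2* at 23.9 ± 6.57. *Lcn2*, at 19.1 ± 7.98 FPKM, overlapped with *Saa2*, which overlapped with *Orm2*. Among all genes of the table the rank of *Saa1* went from 23 to 711, that of *Saa2* from 25 to 2101 and that of *Lcn2* from 61 to 2494, while *Hp* went from 7 to 38.

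The 10 genes together held 2.94% to 3.83% of all counts in *Ahr* HKO livers on the control diet and 0.727% to 0.940% on ethanol. The share was 1.12% to 1.37% in WT livers on ethanol. In WT livers on the control diet it was 0.775% in liver 1, 2.55% in liver 2 and 2.36% in liver 3. *Saa1* and *Saa2* alone took 0.322% to 0.598% of the counts in *Ahr* HKO livers on the control diet and 0.00621% to 0.00875% on ethanol.

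**Figure D1:**
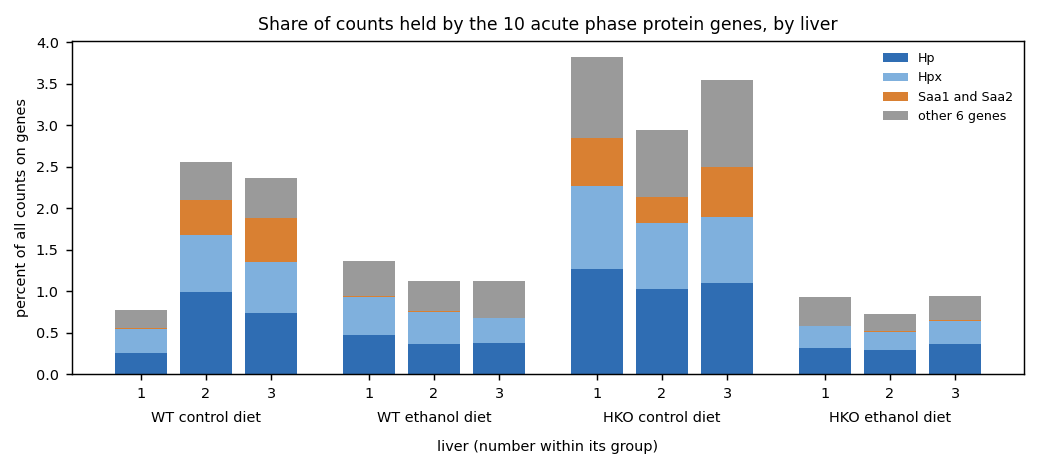
Percent of all counts on genes (vertical axis) held by the 10 acute phase protein genes in each of the 12 livers (bars), split into *Hp*, *Hpx*, *Saa1* with *Saa2*, and the other 6. The 3 *Ahr* HKO control livers stand between 2.94% and 3.83%, the 3 *Ahr* HKO ethanol livers between 0.727% and 0.940%, and liver 1 of the WT control group at 0.775%.

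The 3 serum amyloid A genes of the 10 lie close together on chromosome 7 of the GRCm38.p6 assembly, *Saa3* at 46711998 to 46719615, *Saa1* at 46740497 to 46743181 and *Saa2* at 46751833 to 46754313. *Orm1* (63344556 to 63348163) and *Orm2* (63362449 to 63365877) lie close together on chromosome 4. RefSeq promoter windows were matched by symbol for 7 of the 10 genes, without *Orm1*, *Hp* and *A2m*. The 250 bases before the start are printed for 5 of them, 5' to 3' on the strand of the gene, to show how alike *Saa1* and *Saa2* are upstream and where the letters of the C/EBP motif TTNNGCAA, searched on both strands and set in capitals, fall. These 5 were picked with their values known, as the genes with a window that fell most on ethanol in *Ahr* HKO livers.
*Saa1*, chr7:46742981-46743230, minus strand: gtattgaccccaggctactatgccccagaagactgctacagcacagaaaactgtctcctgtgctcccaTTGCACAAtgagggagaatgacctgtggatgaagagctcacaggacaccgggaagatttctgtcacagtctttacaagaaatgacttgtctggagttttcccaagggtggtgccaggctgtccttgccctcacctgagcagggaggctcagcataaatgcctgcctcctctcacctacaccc
*Saa2*, chr7:46751583-46751832, plus strand: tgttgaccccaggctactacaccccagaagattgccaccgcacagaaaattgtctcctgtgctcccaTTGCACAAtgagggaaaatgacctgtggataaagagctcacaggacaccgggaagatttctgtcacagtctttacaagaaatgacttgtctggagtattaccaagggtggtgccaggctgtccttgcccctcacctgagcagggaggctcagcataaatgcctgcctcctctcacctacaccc
*Saa3*, chr7:46715677-46715926, minus strand: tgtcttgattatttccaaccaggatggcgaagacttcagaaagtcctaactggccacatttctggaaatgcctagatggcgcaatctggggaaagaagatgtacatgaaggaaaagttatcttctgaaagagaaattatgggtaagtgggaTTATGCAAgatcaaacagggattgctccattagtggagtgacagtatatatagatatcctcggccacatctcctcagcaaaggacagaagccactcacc
*Orm2*, chr4:63362199-63362448, plus strand: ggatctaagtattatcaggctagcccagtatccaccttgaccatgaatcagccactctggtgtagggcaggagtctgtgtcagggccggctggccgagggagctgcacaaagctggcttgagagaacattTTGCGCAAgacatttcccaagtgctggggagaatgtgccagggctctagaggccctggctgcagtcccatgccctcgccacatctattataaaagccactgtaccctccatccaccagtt
*Lcn2*, chr2:32387740-32387989, minus strand: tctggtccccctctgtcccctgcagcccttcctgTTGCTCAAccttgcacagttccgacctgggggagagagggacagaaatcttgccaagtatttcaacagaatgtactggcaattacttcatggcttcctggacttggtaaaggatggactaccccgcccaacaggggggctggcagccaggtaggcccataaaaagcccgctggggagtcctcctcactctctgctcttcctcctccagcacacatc
The windows of *Saa1* and *Saa2* aligned with 238 identical bases over 251 columns (94.8%), whereas *Saa3* shared 52.5% with *Saa1* and 51.8% with *Saa2*. The windows of *Saa1* and *Saa3* end at starts that lie inside the annotated span of each gene.

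TTNNGCAA was found in 6 of the 7 windows, those printed and that of *Hpx*, and in 9.56% of all 32851 RefSeq windows. In *Saa3* it began 99 bases before the start, in *Orm2* 120, in *Saa1* 182, in *Saa2* 183 and in *Lcn2* 216. The STAT motif TTCNNNGAA occurred in the *Itih4* window alone (7.02% of all windows), 51 bases before its start. Neither the NF-kB motif, GGG and TTTCC with any 2 bases between them (1.41% of all windows), nor the AhR core GCGTG (28.2%) was found in any of the 7. A match describes letters and is not a site of binding, and windows without a match hold no such letters in these 250 bases only.

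The comparison of ethanol with the control diet in *Ahr* HKO livers asked how the diet changed hepatic expression when hepatocytes lacked AhR. All 10 genes fell, with no overlap between the 3 livers on each diet for any of them. Among all tested genes, 11.7% were called lower in this comparison, and 25.3% were lower without overlap. Among the 9 genes other than *A2m*, which fell to near 0 counts, the decreases ran from a log2 FC of -1.06 for *Orm1* to -7.24 for *Saa2*. The median of these 9 was -2.13, beside -0.02 over all tested genes.

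The serum amyloid A genes *Saa1* and *Saa2* fell far, and *Saa3* less. *Saa1* was at 3065, 1772 and 3254 CPM in *Ahr* HKO control livers and 54.2, 62.1 and 77.6 CPM in ethanol livers, and fell 41.7-fold (log2 FC -5.38 ± 0.31 SE, adjusted *P* = 0.000849). *Saa2* was at 2774, 1299 and 3169 CPM on the control diet and 11.2, 19.7 and 16.9 CPM on ethanol, and fell 151-fold (log2 FC -7.24 ± 0.46, adjusted *P* = 0.000849). Liver 2 was the lowest of the control livers for both genes and still far above each ethanol liver. Reads from near-identical copies can be shared between *Saa1* and *Saa2*, so each single value is less certain than their sum. *Saa3*, a form made by macrophages and adipocytes as well as by hepatocytes, was far lower in level, at 16.6, 5.46 and 14.2 CPM on the control diet and 1.96, 3.24 and 3.09 CPM on ethanol (log2 FC -2.13 ± 0.42, adjusted *P* = 0.0108).

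*Lcn2*, the siderophore-binding lipocalin, was at 1574, 596 and 1432 CPM in *Ahr* HKO control livers and at 26.1, 14.7 and 12.5 CPM in ethanol livers. It fell 67.5-fold (log2 FC -6.08 ± 0.51, adjusted *P* = 0.00136). The scavengers of hemoglobin and heme fell less and evenly. *Hp* was at 12751, 9771 and 11757 CPM against 3246, 3027 and 3922 CPM (log2 FC -1.75 ± 0.19, adjusted *P* = 0.00215). *Hpx* was at 10090, 7585 and 8640 CPM against 2832, 2275 and 2969 CPM (log2 FC -1.70 ± 0.19, adjusted *P* = 0.00230).

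The orosomucoid genes differed in the size of the change. *Orm1* was at 1812, 1525 and 1642 CPM on the control diet and 868, 596 and 918 CPM on ethanol (log2 FC -1.06 ± 0.19, adjusted *P* = 0.00798). *Orm2* was at 311, 200 and 101 CPM on the control diet and 41.4, 23.4 and 35.2 CPM on ethanol (log2 FC -2.61 ± 0.42, adjusted *P* = 0.00574). They too are close copies that can share reads, and the difference between their changes was not tested.

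The protease inhibitors differed widely in level, with *A2m* the lowest of the 10. *Itih4* was at 6121, 5286 and 8051 CPM on the control diet and 2689, 1515 and 2211 CPM on ethanol (log2 FC -1.60 ± 0.26, adjusted *P* = 0.00618). *A2m* had 1888, 294 and 457 counts in the *Ahr* HKO control livers and 0, 4 and 4 counts in the ethanol livers. The pooled ratio was 350 (95% CI 177 to 811, exact, counting error only), on 2639 and 8 counts, and *A2m* was called with an adjusted *P* = 0.00301. *A2m* passed the count filter only through the *Ahr* HKO control livers. Its calls against that group were thus largely set by the filter and lend no support. *A2m* was thus a low transcript that was above a few counts in 1 of the 4 groups, and 6.15-fold apart between the livers of that group.

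**Figure D2:**
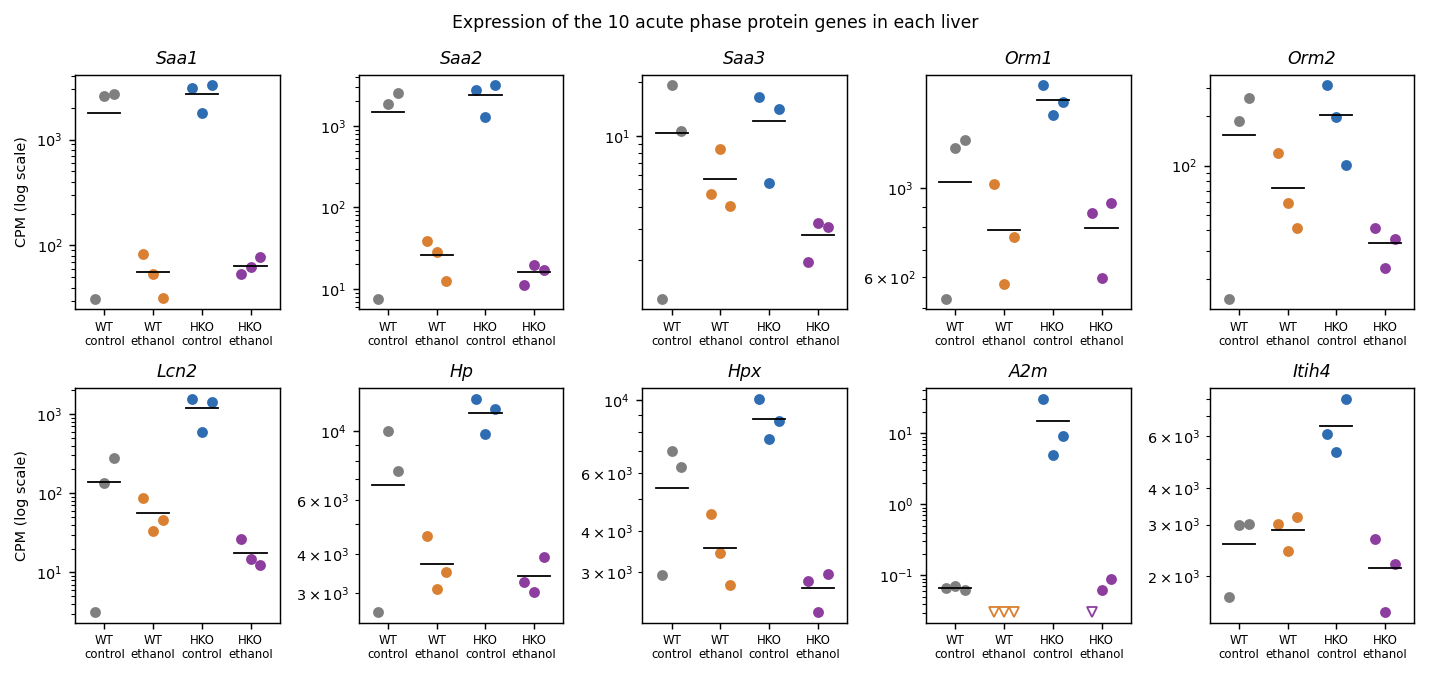
CPM on a logarithmic axis of each acute phase protein gene in the 12 livers, by group (points), with the arithmetic mean of 3 livers as a line where no liver is at 0. Open triangles at the foot of the *A2m* panel mark livers with 0 counts. Each of the 10 genes is lower in every *Ahr* HKO ethanol liver than in every *Ahr* HKO control liver, and liver 1 is the lowest WT control liver for 9.

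Kupffer cell and macrophage markers were lower in the same livers. All 11 were called lower in *Ahr* HKO livers on ethanol, with *Marco* (log2 FC -3.90), *Adgre1* (-2.07) and *Timd4* (-2.04) the largest, and their summed CPM was 455 to 1236 on the control diet and 298 to 366 on ethanol. Under the replicate block 2 of the 11 were called. Neutrophil markers summed to 14.1 to 16.6 CPM on the control diet and 4.96 to 5.95 CPM on ethanol, and 3 of 7 tested were lower, *S100a8* (-1.65), *S100a9* (-1.42) and *Csf3r* (-1.33). The list holds 12 markers, and those not tested were too low. Of 10 hepatocyte markers 3 were called higher, *Ass1* (1.43), *Pck1* (1.33) and *Hal* (1.26). *Ass1* was low, at 1.14 to 2.12 CPM on the control diet and 3.70 to 4.94 CPM on ethanol. The sum of the 10 was 13144 to 21559 CPM on the control diet and 22699 to 24614 CPM on ethanol. Of the 10, 9 had a higher value on ethanol, with *Pck1* at a mean of 2254 and 5676 CPM. *Cps1* had a lower value, at a mean of 4674 and 3233 CPM. Cholangiocyte markers summed to 46.02 to 477 CPM on the control diet and 37.9 to 68.4 CPM on ethanol, with *Epcam* lower (-1.96). Most of that sum was *Spp1*, at 35.0 to 462 CPM on the control diet and 29.5 to 56.7 CPM on ethanol. Of the 6 cholangiocyte markers tested, 4 had a lower and 2 a higher value on ethanol, and *Epcam* alone was called. The part of these shifts in the decrease of the acute phase protein genes was not tested.

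The comparison of ethanol with the control diet in WT livers asked the same with AhR present. The means of *Saa1* and *Saa2* were 31.6-fold and 55.7-fold lower on ethanol, but the livers of the 2 diets overlapped and neither passed the test. Of the 10 genes, 0 were called by edgeR, beside 6.58% of all tested genes. At an unadjusted *P* value under 0.05 there were 3 (*Saa1*, *Saa2* and *A2m*), beside 3665 of all 14038 tested genes. DESeq2 called 2 (*Saa1* and *Saa2*), beside 1440 of the 14038. A single edgeR fit of all 12 libraries called the same 2, beside 1016. The limma fits of FPKM called 0.

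*Saa1* was at 31.5, 2571 and 2696 CPM in WT control livers and at 82.3, 53.8 and 31.8 CPM in ethanol livers (log2 FC -4.98 ± 1.35, adjusted *P* = 0.0647). *Saa2* was at 7.62, 1839 and 2563 CPM against 38.5, 28.3 and 12.4 CPM (log2 FC -5.80 ± 1.65, adjusted *P* = 0.0731). In both genes liver 1 lay below all ethanol livers and the other two control livers lay far above them. Without liver 1 the log2 FC was -5.56 ± 0.41 for *Saa1* (adjusted *P* = 0.00448) and -6.38 ± 0.51 for *Saa2* (adjusted *P* = 0.00585), and both were called in that fit. These calls are conditional on leaving out a liver picked by the values of the same genes. Without liver 1 *Hp* was at a log2 FC of -1.23 (adjusted *P* = 0.0565) and *Lcn2* at -1.90 (adjusted *P* = 0.0899).

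The remaining genes overlapped between the diets in WT livers, except *A2m*, which was lower without overlap, as were 16.6% of all tested genes. *Lcn2* was at 3.17, 135 and 281 CPM on the control diet and 87.5, 33.2 and 46.2 CPM on ethanol (log2 FC -1.33 ± 1.14, adjusted *P* = 0.504). *Hp* was at 2604, 10038 and 7434 CPM against 4591, 3082 and 3514 CPM (log2 FC -0.84 ± 0.45, adjusted *P* = 0.284). *Hpx* was at 2936, 7008 and 6241 CPM against 4506, 3429 and 2753 CPM (log2 FC -0.60 ± 0.34, adjusted *P* = 0.317). Without liver 1 *Hpx* was at -0.89 (adjusted *P* = 0.111). For these 3 genes the sign of the change turned positive in at least 1 fit of FPKM.

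*Orm1* was at 529, 1261 and 1324 CPM in WT control livers and 1025, 577 and 753 CPM in ethanol livers (log2 FC -0.40 ± 0.36, adjusted *P* = 0.527). *Orm2* was at 15.3, 188 and 260 CPM against 119, 58.9 and 41.2 CPM (log2 FC -1.08 ± 0.86, adjusted *P* = 0.473). *Saa3* was at 1.22, 19.2 and 10.6 CPM against 4.70, 8.49 and 4.03 CPM (log2 FC -0.85 ± 0.78, adjusted *P* = 0.537). In each of these genes livers 2 and 3 of the control group were above all ethanol livers, and liver 1 below them all. Without it the log2 FC was -0.72 for *Orm1*, -1.61 for *Orm2* and -1.38 for *Saa3*, and none of the 3 was called (adjusted *P* = 0.176, 0.108 and 0.119).

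*Itih4* was the gene of the 10 with the smallest shift in WT livers. It was at 1700, 2982 and 3023 CPM on the control diet and 3018, 2443 and 3183 CPM on ethanol (log2 FC 0.17 ± 0.24, adjusted *P* = 0.716), and without liver 1 the log2 FC was -0.06. *A2m* had 3, 4 and 3 counts on the control diet and 0 in each ethanol liver. Both groups were near the limit of detection, so no FC is given.

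Neutrophil markers summed to 4.28 to 7.07 CPM in WT control livers and 7.37 to 13.7 CPM in WT ethanol livers, with *S100a9* higher (log2 FC 1.67, adjusted *P* = 0.0369). Kupffer cell and macrophage markers summed to 506 to 657 CPM and 464 to 1119 CPM. Of the hepatocyte markers, *Pck1* (1.51) and *Tat* (1.24) were higher and *Cyp2e1* (-0.81) lower, and the adipocyte marker *Cfd* was at 0.473 CPM on average on the control diet and at 0 counts in all ethanol livers. Without liver 1 *S100a9* (adjusted *P* = 0.0989), *Tat*, *Cyp2e1* and *Cfd* were not called, and *Pck1* was. The part of these shifts was not tested.

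The comparison of *Ahr* HKO with WT livers on the control diet asked how the genotypes differed without ethanol. Only the *Ahr* HKO mice carried *Alb-Cre*, so loss of AhR and presence of Cre cannot be told apart in any comparison of genotypes. All 10 genes had a higher mean in *Ahr* HKO livers, and 2 of them, *A2m* and *Itih4*, were called higher, beside 9.64% of all tested genes. For 5 genes (*Orm1*, *Lcn2*, *Hpx*, *A2m* and *Itih4*) the *Ahr* HKO livers all lay above the WT livers, as did 23.2% of all tested genes. *Itih4*, at the values given above, rose 2.53-fold (log2 FC 1.34 ± 0.28, adjusted *P* = 0.0115), and the log2 FC was 1.11 without liver 1 of the WT controls (adjusted *P* = 0.0247). *A2m* rose from 10 to 2639 pooled counts, a ratio of 235 (95% CI 127 to 490, exact, counting error only), with an adjusted *P* = 0.00192 (0.0125 without liver 1). This call too lends no support, since *A2m* passed the count filter only through the *Ahr* HKO control livers.

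*Lcn2* was 8.58-fold higher on average in *Ahr* HKO than in WT control livers (log2 FC 3.10 ± 1.22, adjusted *P* = 0.0950). Without liver 1 of the WT controls, a choice made from these same genes, the log2 FC was 2.53 ± 0.53 and the gene was called (adjusted *P* = 0.0251). The log2 FC was 0.68 ± 0.33 for *Orm1* (adjusted *P* = 0.159), 0.70 ± 0.32 for *Hpx* (adjusted *P* = 0.145) and 0.77 ± 0.44 for *Hp* (adjusted *P* = 0.229). Without liver 1 these were 0.36, 0.41 and 0.39, and none was called. For *Saa1* the value was 0.61 ± 1.13 and for *Saa2* 0.72 ± 1.34, and without liver 1 these came to 0.03 and 0.13. *Orm2* (0.40 ± 0.85) and *Saa3* (0.22 ± 0.81) went to -0.13 and -0.31 without it. For *Saa1*, *Saa2*, *Saa3*, *Orm2* and *Hp* the *Ahr* HKO livers overlapped with livers 2 and 3 of the WT controls.

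Neutrophil markers summed to 14.1 to 16.6 CPM in *Ahr* HKO control livers, above the 4.28 to 7.07 CPM of WT controls, and 5 of 7 tested were higher, among them *Cxcr2* (log2 FC 2.63) and *S100a9* (2.07). The list holds 12, of which *Ly6g*, *Mpo*, *Ngp*, *Camp* and *Ltf* were too low to be tested, at a mean of at most 0.168 CPM in either group. Of those tested, *Mmp8* changed most, from no count in WT control livers to 0.131 to 0.565 CPM in *Ahr* HKO control livers. It was a low transcript, so no FC is given. *Epcam* (2.28) was the cholangiocyte marker called. Of the hepatocyte markers *Tat* (1.71) and *Pck1* (0.99) were higher and *Hal* (-0.95) lower. Without liver 1 of the WT controls *Pck1* was not called, and 4 of the 7 neutrophil markers were. Of the 11 Kupffer cell and macrophage markers 0 were called by edgeR and by DESeq2, with 1 at an unadjusted *P* value under 0.05. The part of these shifts was not tested.

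**Figure D3:**
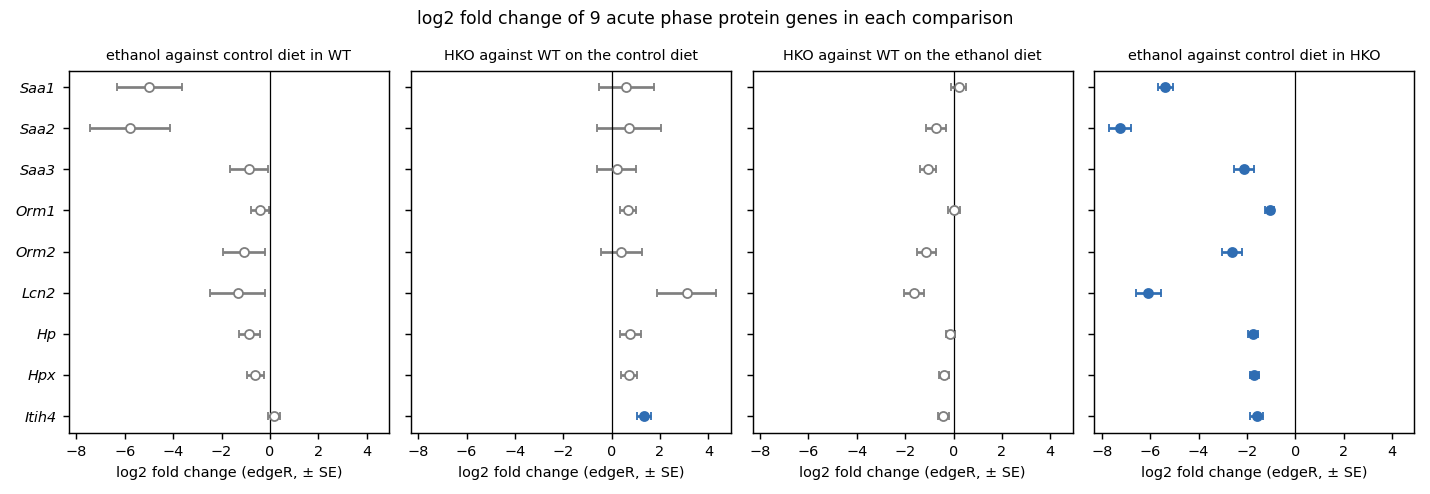
log2 FC with its SE from edgeR (horizontal axis) of 9 acute phase protein genes in 4 comparisons of groups of 3 livers, with filled points for DEGs. *A2m* is left out because its FC rests on groups near 0 counts. All 9 are filled and below -1 for ethanol in *Ahr* HKO livers, 1 (*Itih4*) is filled for genotype on the control diet, and none is filled for ethanol in WT livers or for genotype on ethanol.

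The comparison of *Ahr* HKO with WT livers on ethanol asked whether the genotypes differed once both drank ethanol. By edgeR 0 of the 10 genes were called, beside 1.03% of all tested genes. At an unadjusted *P* value under 0.05 there were 3 (*Saa3*, *Orm2* and *Lcn2*), beside 2950 of all 14038 tested genes. DESeq2 called the same 3 lower, beside 627 of the 14038. *Lcn2*, at 87.5, 33.2 and 46.2 CPM in WT livers and 26.1, 14.7 and 12.5 CPM in *Ahr* HKO livers, had a log2 FC of -1.64 ± 0.41 (adjusted *P* = 0.0986). *Orm2* had a log2 FC of -1.13 ± 0.40 (adjusted *P* = 0.172) and *Saa3* one of -1.06 ± 0.33 (adjusted *P* = 0.146). *Lcn2* and *Saa3* were lower in every *Ahr* HKO liver than in every WT liver, as were 14.2% of all tested genes.

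In CPM, *Hp*, *Orm1* and *Saa1* had similar means in both genotypes on ethanol. *Hp* was at 3729 ± 777 CPM in WT and 3398 ± 467 CPM in *Ahr* HKO livers (log2 FC -0.13 ± 0.19), and *Orm1* at 785 ± 226 and 794 ± 174 CPM (0.02 ± 0.25). *Saa1* was at 56.0 ± 25.3 and 64.7 ± 11.9 CPM (0.21 ± 0.32). *Hpx* had a log2 FC of -0.40 ± 0.21, *Itih4* one of -0.43 ± 0.22 and *Saa2* one of -0.73 ± 0.40, with livers overlapping in CPM. In FPKM the *Ahr* HKO livers lay below all WT livers for *Hp* (2097 to 2600 against 2614 to 3414). The same held for *Hpx* (1427 to 1781 against 1961 to 3035) and *Itih4* (445 to 783 against 879 to 1062). *Orm1*, *Saa1* and *Saa2* overlapped in FPKM too. Over all tested genes the median log2 FC on log2(FPKM + 1) was -0.13. *A2m* had 0 counts in all WT livers and 8 counts over the *Ahr* HKO livers.

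Kupffer cell and macrophage markers were at 464 to 1119 CPM in WT and 298 to 366 CPM in *Ahr* HKO livers on ethanol, with 10 of 11 lower without overlap. By edgeR 0 of them were called, with 10 at an unadjusted *P* value under 0.05, and DESeq2 called 8 lower. Neutrophil markers were at 7.37 to 13.7 and 4.96 to 5.95 CPM, and the hepatocyte markers, with *Tat* higher (log2 FC 1.62), at 14314 to 15758 and 22699 to 24614 CPM. The adipocyte marker *Cfd* was called higher in *Ahr* HKO livers, at 0 counts in all WT livers and 0.654 to 1.84 CPM in *Ahr* HKO livers. The part of these shifts was not tested.

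Whether the effect of ethanol differed between genotypes was tested as the interaction with all 12 livers. At an adjusted *P* value under 0.05 it was called for 2 of the 10 genes, both with the lower value in *Ahr* HKO livers, beside 11.1% of all tested genes in that direction. For *Itih4* the log2 change on ethanol was lower by 1.77 ± 0.38 in *Ahr* HKO than in WT livers (adjusted *P* = 0.00849), and it remained called when any 1 liver was left out (-1.54 without liver 1 of the WT controls). For *Lcn2* the difference was -4.74 ± 1.42 (adjusted *P* = 0.0349). It was -4.17 without liver 1 of the WT controls (adjusted *P* = 0.00721), but the call was lost when any of 7 other livers was left out, livers 1 and 3 of *Ahr* HKO on the control diet, liver 2 of the WT controls, liver 1 of WT on ethanol and all 3 of *Ahr* HKO on ethanol. The adjusted *P* value over these fits ranged from 0.00721 to 0.0796. In the same interaction 7 of 11 Kupffer cell and macrophage markers (median -1.36) and 6 of 7 neutrophil markers (median -3.01) were called lower, and without liver 1 of the WT controls 1 of 11 and 6 of 7 were. The part of these markers was not tested.

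The other genes were not called for the interaction. The difference was -1.11 ± 0.42 for *Hpx* (adjusted *P* = 0.0778), -0.91 ± 0.53 for *Hp* and -0.66 ± 0.45 for *Orm1*. It was -0.40 ± 1.33 for *Saa1* and -1.44 ± 1.59 for *Saa2*, and came to 0.17 ± 0.48 and -0.86 ± 0.63 without liver 1. For *Orm2* it was -1.54 ± 1.06 and for *Saa3* -1.28 ± 1.00. Without liver 1 the difference was -0.81 for *Hpx*, -0.52 for *Hp*, -0.34 for *Orm1*, -0.999 for *Orm2* and -0.75 for *Saa3*, again with no call. The interaction of *A2m* could not be estimated, since WT livers on ethanol had 0 counts.

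The WT control group was uneven for most of these genes. The highest of its 3 livers exceeded the lowest 336-fold for *Saa2*, 88.9-fold for *Lcn2*, 85.5-fold for *Saa1*, 17.0-fold for *Orm2* and 15.7-fold for *Saa3*. It did so 3.85-fold for *Hp*, 2.50-fold for *Orm1*, 2.39-fold for *Hpx* and 1.78-fold for *Itih4*. Within *Ahr* HKO control livers the same ratio ran from 1.19 for *Orm1* to 3.07 for *Orm2* among the 9 genes other than *A2m*. Liver 2 was the lowest of the *Ahr* HKO controls for 9 of the 10 genes, all but *Orm2*. On ethanol the ratio stayed between 1.296 and 3.10 in both genotypes for these 9 genes.

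Over the 12 livers the 45 pairs of the 10 genes had Pearson correlations of log2 CPM from 0.492 (*Saa3* and *A2m*) to 0.994 (*Saa1* and *Saa2*), with a median of 0.859. *Hp* and *Hpx* had 0.968. These values describe 12 livers that share 4 groups and are not tests. Among 11870 other genes with enough counts, the gene most like *Saa1* was *Xpnpep1* (r = 0.931, Spearman's rho = 0.769), which was also the closest to *Hp* (r = 0.938). *Jak3* was the closest to *Saa2* (r = 0.921) and to *Hpx* (r = 0.953), *Nos1ap* to *Lcn2* (r = 0.942) and to *Itih4* (r = 0.966). *Cyb561* was the closest to *Orm1* (r = 0.926), *C4bp* to *Orm2* (r = 0.905), *Otulin* to *Saa3* (r = 0.841) and *Mid1* to *A2m* (r = 0.981).

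Another 19 positive acute phase genes were read beside the 10. On the control diet 12 of the 19 were higher in *Ahr* HKO than in WT livers, and 12 were called without liver 1 of the WT controls. The largest increases were in the metallothioneins *Mt2* (log2 FC 4.26) and *Mt1* (3.94), the metalloreductase *Steap4* (3.603) and the lipopolysaccharide co-receptor *Cd14* (3.37). The median of the 19 was 1.41, beside 0.00 over all tested genes.

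On ethanol 15 of the 19 were lower in *Ahr* HKO livers than on the control diet, led by *Cd14* (-4.14), the serine protease inhibitor *Serpina3n* (-3.50), the pentraxin *Apcs* (-3.27), which is the main pentraxin of the mouse acute phase, and *Steap4* (-3.25). *Serpina3n* was at 5300 to 8116 CPM in *Ahr* HKO control livers, at 501 to 639 CPM in *Ahr* HKO ethanol livers, and at 432 to 881 CPM over the 6 WT livers. The median of the 19 was -2.07. The comparisons of diet and of genotype share the *Ahr* HKO control livers, so their values are not independent of each other.

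In WT livers ethanol raised 1 of the 19, the hepcidin gene *Hamp2* (log2 FC 3.25 ± 0.80, adjusted *P* = 0.0498), and the median was -0.15. *Hamp2* was no longer called without liver 1 of the WT controls. Between genotypes on ethanol 0 of the 19 were called by edgeR, with 3 at an unadjusted *P* value under 0.05 and 3 lower by DESeq2. The interaction was called for 9 of the 19, all with a lower value in *Ahr* HKO livers, with *Cd14* (-5.26), the interleukin 1 receptor antagonist *Il1rn* (-3.83), *Serpina3n* (-3.50) and *Steap4* (-3.10) the largest.

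**Figure D4:**
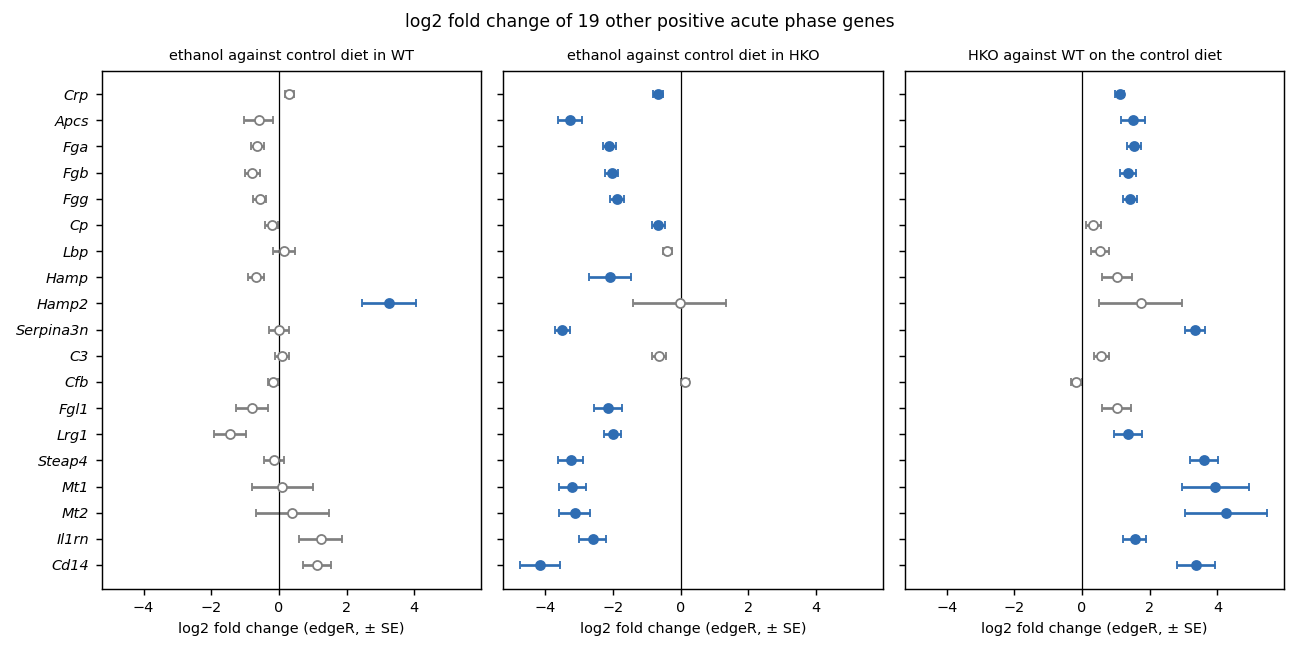
log2 FC with its SE from edgeR (horizontal axis) of 19 other positive acute phase genes for ethanol in WT livers, ethanol in *Ahr* HKO livers and genotype on the control diet, with filled points for DEGs. In *Ahr* HKO livers 15 are lower on ethanol, 12 are higher than in WT on the control diet, and 1 (*Hamp2*) is higher on ethanol in WT.

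The negative acute phase genes, whose plasma proteins fall in inflammation, were read as a further list. In *Ahr* HKO livers on ethanol 2 of 8 were higher, the thyroxine carrier *Ttr* (log2 FC 0.81) and the retinol carrier *Rbp4* (0.65). In WT livers on ethanol *Serpina6*, which carries glucocorticoids, was higher (1.41) and *Apoa1*, the main protein of high density lipoprotein, lower (-1.09). *Apoa1* was the 1 gene of the 8 called for the interaction (0.93). Both calls of *Apoa1* were lost without liver 1 of the WT controls (adjusted *P* = 0.0842 and 0.0556). Between genotypes on the control diet 0 of the 8 were called by edgeR, with 1 at an unadjusted *P* value under 0.05 and 1 lower by DESeq2.

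Of 8 family relatives, *Saa4*, the constitutive serum amyloid A of high density lipoprotein, was lower on ethanol in WT (log2 FC -1.10) and in *Ahr* HKO livers (-0.64), and higher in *Ahr* HKO than in WT livers on the control diet (0.77) and on ethanol (1.23). It ranged from 272 to 1190 CPM over the 12 livers. *Itih3*, a heavy chain like *Itih4*, was higher in *Ahr* HKO livers on the control diet (1.11) and lower on ethanol in these livers (-1.75), with an interaction of -1.11. *Pzp*, the abundant alpha-2-macroglobulin of mouse liver, was lower on ethanol in *Ahr* HKO livers (-0.88). The murinoglobulin gene *Mug1* was lower on ethanol in WT livers (-0.87) and had an interaction of 1.27. Without liver 1 of the WT controls *Saa4* was not called for genotype on the control diet (adjusted *P* = 0.0656), nor *Mug1* for ethanol in WT (adjusted *P* = 0.105).

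Of the cytokines that drive these genes, the interleukin 6 family was near the limit of detection. *Il6* had 0 counts in 10 of the 12 livers and at most 10 counts, *Osm* had 0 in 9 and *Lif* in 7, and none of these 3 was tested. *Il1b* was at 0.666 to 6.12 CPM and *Il1a* at 0.756 to 3.97 CPM over the 12 livers. *Tnf* was close to the floor, at 0.0617 to 0.180 CPM in *Ahr* HKO ethanol livers and 0.175 to 1.21 CPM in WT ethanol livers. Of the 11 ligands and receptors tested, 6 were higher in *Ahr* HKO than in WT livers on the control diet, with the interleukin 1 receptor *Il1r1* (log2 FC 2.65), the oncostatin M receptor *Osmr* (1.78), the tumor necrosis factor receptor *Tnfrsf1a* (1.55) and *Il1b* (1.33) the largest. On ethanol 5 of the 11 were lower in *Ahr* HKO livers, with *Il1b* (-1.69), *Tnfrsf1a* (-1.58), *Osmr* (-1.45) and the signal-transducing chain *Il6st* (-1.32) the largest, and 1, *Il1rap*, was higher. In WT livers ethanol lowered the receptor gene *Lifr* (-1.32). The receptor *Il6ra* was higher in *Ahr* HKO than in WT livers on ethanol (1.01), and the interaction was called for 5 of the 11 with a lower value and for *Lifr* (1.29) with a higher value, led by *Tnf* (-2.98), *Il1b* (-2.89), *Tnfrsf1a* (-1.88) and *Osmr* (-1.70). Without liver 1 of the WT controls the call of *Lifr* for ethanol in WT was lost (adjusted *P* = 0.0989), as were the interaction calls of *Lifr* (adjusted *P* = 0.0663) and *Tnf* (adjusted *P* = 0.0957).

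Among 13 genes of the signalling and transcription factors, 4 were higher in *Ahr* HKO livers on the control diet. They were *Socs3*, the feedback inhibitor that STAT3 induces (log2 FC 1.56), *Cebpd* (1.48), *Hnf4a* (0.97) and *Stat3* (0.88). *Socs3* (-1.85) and the kinase gene *Jak1* (-0.76) were lower on ethanol in *Ahr* HKO livers, *Nfkbia*, the inhibitor of NF-kB, was higher on ethanol in WT livers (0.80), and the interaction was called for *Jak1* (-0.63) and *Nfkb1* (-0.51). *Cebpb* had the largest log2 FC of the 13 between genotypes on the control diet (2.78, adjusted *P* = 0.0789) but was not called. It was at 4.28 to 56.0 CPM in WT and 69.1 to 204 CPM in *Ahr* HKO control livers. Without liver 1 of the WT controls *Nfkbia* (adjusted *P* = 0.0527) and *Socs3* for genotype on the control diet (adjusted *P* = 0.121) were not called. In that genotype comparison without liver 1, *Cebpb* (5.002, adjusted *P* = 0.00693) and *Rela* (0.62, adjusted *P* = 0.0144) were called higher. Between genotypes on ethanol 0 of the 13 were called by edgeR and by DESeq2, with 4 at an unadjusted *P* value under 0.05.

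The genes that clear these proteins and their cargo changed in both directions. *Cd163*, the macrophage receptor for haptoglobin with hemoglobin, was higher in *Ahr* HKO than in WT control livers (log2 FC 1.03) and lower on ethanol in *Ahr* HKO livers (-1.38). *Hmox1*, which breaks down heme, was higher on ethanol in WT livers (1.66) and higher in *Ahr* HKO livers on the control diet (1.09), with an interaction of -2.03. Its call for ethanol in WT was lost without liver 1 of the WT controls (adjusted *P* = 0.0537). *Blvrb*, which reduces biliverdin, was higher on ethanol in WT (1.31) and in *Ahr* HKO livers (1.40). *Lrp1*, the receptor for hemopexin with heme, was lower on ethanol in WT livers (-0.74), as was *Lrp2* (-3.49). *Lrp2* was a low transcript, at 1.09 to 1.61 CPM in WT control livers and near the floor in WT ethanol livers (0.0378 to 0.175 CPM). The lipoprotein receptor *Scarb1* was lower on ethanol in *Ahr* HKO livers (-0.86).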

How the data were processed

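The table deposited by the authors gives raw counts of reads for each gene. It also gives FPKM, in which the authors scaled each gene by its length and library, and TPM, which the authors deposited and which served here only to check the table. The submitters' processing notes name FastQC 0.11.7, Trimmomatic 0.38, HISAT2 2.1.0, Bowtie2 2.3.4.1, StringTie 1.3.4d and the mm10 build. How reads of near-identical genes were assigned is not given in the sources used here.

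Groups came from the sample labels, which name no batch. Genes were filtered with filterByExpr (14038 of 24532 kept), scaled by TMM (factors 0.925 to 1.16) and tested with edgeR 4.0.16 in R 4.3.3, using 6 libraries per pair of groups and all 12 for the interaction. *P* values were adjusted by Benjamini-Hochberg over all tested genes. The script was checked on simulated counts. Alternatives used DESeq2 1.42.0, limma 3.58.1 on log2 FPKM with a pseudocount of 1 or 0.1, other scalings, filters and fits, a replicate block, and each liver left out. Depth was 46306518 to 74336255 counts per liver, and the error of each value is the spread of 3 livers.

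The 10 genes and all other gene lists were chosen with earlier results of these data known. Every one of the 10 is named. Of other lists, at most 4 called genes per comparison with the largest change were named, of marker lists at most 3 and any marker at 0 throughout, and for each of the 10 the gene with the highest correlation. *Cebpb* and *Rela*, called between genotypes on the control diet only without liver 1 of the WT controls, were named as well. Replicate numbers were not taken as pairs in the main fits.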

Additional observations from a re-analysis of the deposited data

Results flagged for a closer look

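The effect of ethanol differed between genotypes by a test of the difference itself, the interaction in edgeR with all 12 livers, for 2 of the 10 acute phase protein genes. Over all tested genes 11.1% were called in the same direction, so the count of 2 is not a result about these 10. The log2 change on ethanol in *Ahr* HKO livers minus that in WT livers was -4.74 for *Lcn2* (adjusted *P* = 0.0349) and -1.77 for *Itih4* (adjusted *P* = 0.00849). *Itih4* was lower in all 3 *Ahr* HKO livers on ethanol than in any on the control diet, and the WT livers of both diets overlapped. The call of *Lcn2* held in 5 of 12 fits that left out 1 liver (adjusted *P* = 0.00721 to 0.0796) and was lost with the replicate block, under which *Itih4* alone was called.

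Among other positive acute phase genes the same difference was -5.26 for *Cd14* (adjusted *P* = 0.00150), -3.83 for *Il1rn* (adjusted *P* = 0.00974), -3.50 for *Serpina3n* (adjusted *P* = 0.000369) and -3.10 for *Steap4* (adjusted *P* = 0.00247).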

How the results depend on the processing

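The decrease of the 10 acute phase protein genes on ethanol in *Ahr* HKO livers kept its direction and its calls under the 9 alternatives and with each liver left out, except that a minimum of 10 counts in every library removed *A2m* and left 9.

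For ethanol in WT livers, DESeq2 and the single fit of 12 libraries called 2 genes each, and fits without 1 liver called 0 to 2. The sign turned for *Lcn2* on log2(FPKM + 1) (0.12) and log2(FPKM + 0.1) (0.21), and with quantile normalization for *Hp* (0.32), *Hpx* (0.45) and *Cyp2e1* (0.28). Without 1 liver *Itih4* ranged from -0.060 to 0.30. Between genotypes on the control diet 2 were called, 3 by DESeq2, in the single fit and with quantile normalization, and 1 with the minimum of 10 counts, where *A2m* was not tested, and without 1 liver *Saa3* ranged from -0.31 to 1.03 and *Orm2* from -0.13 to 1.01.

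Between genotypes on ethanol DESeq2 called 3 (*Saa3*, *Orm2* and *Lcn2*), the replicate block 1 (*Lcn2*) and limma with quantile normalization 1 (*Hp*). *Orm1* turned to -0.027 with upper-quartile scaling, -0.19 on log2(FPKM + 1), -0.30 with quantile normalization and -0.19 on log2(FPKM + 0.1). Without 1 liver *Orm1* ranged from -0.16 to 0.26, *Hp* from -0.25 to 0.043 and *Saa1* from -0.074 to 0.59. The interaction, called for 2, was called for 3 by DESeq2, 1 (*Itih4*) with the replicate block, 4 with limma on log2(FPKM + 1), 5 with quantile normalization, 4 on log2(FPKM + 0.1) and 1 to 2 without 1 liver, where *Saa1* ranged from -0.84 to 0.17. The cause was not tested.

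Over all tested genes, calls for ethanol in WT livers were 924 (441 higher), 1440 by DESeq2, 530 with the replicate block, 832 (632 higher) on log2(FPKM + 1), 1082 (800 higher) on log2(FPKM + 0.1) and 360 to 830 without 1 liver. Between genotypes on ethanol they were 145 (94 higher), 1045 (418 higher) by DESeq2, 429 in the single fit, 245 with the block, 260 (67 higher) on log2(FPKM + 1), 93 with quantile normalization, 220 (47 higher) on log2(FPKM + 0.1) and 10 to 193 without 1 liver. Between genotypes on the control diet 2782 became 1718 on log2(FPKM + 1) and 1772 with quantile normalization. For ethanol in *Ahr* HKO livers 3093 became 1859 and 1760 under the same settings. Interaction calls of 3137 (1576 higher) became 3522 (810 higher) on log2(FPKM + 1) and 3382 (780 higher) on log2(FPKM + 0.1). On log2(FPKM + 0.1) the median log2 value of all genes moved to 0.16 for ethanol in WT, -0.21 between genotypes on ethanol and -0.24 for the interaction, and changes on that scale are relative to these.

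Replicate numbers were not taken as pairs in the main fits. Same-numbered livers correlated at -0.09 to 0.18. Between genotypes on ethanol 4 of 6 livers were closest to their own number, and 0 of 6 in each other comparison. With 3 livers per group these values cannot decide whether livers were paired. Of the 10 genes, *A2m* alone had livers at or below 3 counts, where depth limits what can be read.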
